A study of Caenorhabditis elegans with 6 samples.

Results

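The miRNAs mir-238, mir-239a and mir-239b (cel-mir-238, cel-mir-239a and cel-mir-239b in the files) form one seed family of Caenorhabditis elegans, and they are 3 of the 253 miRNA genes counted in these gonad libraries. They were taken by name, with earlier results of these data known. All 3 passed the filter on low counts, as did 124 of the 253. The study sequenced small RNA from gonads dissected from adults of N2, the standard wild-type laboratory strain, and asked which miRNAs are more abundant in the male gonad. There were 3 libraries of hermaphrodite gonads, which make oocytes in the adult once their spell of sperm production is over, and 3 of male gonads, which make sperm. No agent was given to either group and both carried the same wild-type genotype. The labels name the tissue as gonads and the cell type as germline, and the number of animals behind a library is not given in the sources used here. The libraries are listed as separate samples, but nothing states that they came from separate cultures, so p-values measure the spread between these libraries, which may be technical.

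A miRNA is a short RNA cut from a hairpin precursor that guides Argonaute proteins to matching sites in mRNAs, mainly through its seed, the bases near its 5′ end. Members of a family that share a seed can act on overlapping sets of targets. In this species the family is known from adult ageing, where loss of mir-238 shortens lifespan and loss of the mir-239 genes lengthens it. In the WBcel235 annotation mir-238 lies on the minus strand of chromosome III, outside other genes, and the miRNA nearest to it is mir-80 on the same strand. The mir-239 genes are neighbours on the X chromosome in divergent orientation, with mir-239b on the minus strand first along the chromosome and mir-239a on the plus strand after it. They also lie outside other genes, with the non-coding C34E11.9 and C34E11.20 between them. Each hairpin is annotated with 2 mature arms, while the count tables give 1 number per hairpin, so the arms cannot be told apart. The mir-239 copies are close but not identical in sequence, and how reads that match both were counted is not stated. Their separate values are therefore uncertain, and their sum is given beside them.

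The hermaphrodite libraries held from 2268159 to 2621478 miRNA counts and the male libraries from 245399 to 597166, a mean 5.64-fold lower, so depth and sex cannot be told apart. The upper limit behind a count of 0, which is 3 counts, was worth 1.14 to 1.32 CPM (counts brought to one library size) in hermaphrodite libraries and 5.02 to 12.2 CPM in male libraries. Every member had at least 5 counts in every library. The oocyte and embryo miRNAs mir-35 to mir-42 summed to between 180896 and 192478 CPM in hermaphrodite libraries and between 550 and 638 CPM in male libraries. Fewer cells of a type and less RNA per cell cannot be told apart in such libraries. Because the scaling between the sexes moves every level, each member is given as raw counts, as CPM of the library total and as CPM scaled by the trimmed mean of M values (TMM). The changes below are log2 male over hermaphrodite.

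The family was a small part of the miRNA pool in both gonads, and the order of its members by count differed between the hermaphrodite and male libraries. In hermaphrodite gonads mir-239b was the most counted member, followed by mir-238 and then mir-239a, in each of the 3 libraries. No male library had that order. In male gonads mir-239a and mir-239b were counted at similar levels, and mir-239a, relative to mir-239b, stood 6.74-fold higher than in hermaphrodite gonads. The exact two-sided permutation p for that ratio was 0.1, and 0.2 adjusted over the 2 ratios tested. Over all pairs of tested miRNAs the within-library ratio did not overlap between the sexes for 70.3%. The 3 members together took 0.0107% ± 0.0050 of hermaphrodite counts and 0.0149% ± 0.0024 of male counts (SD, n = 3). These shares overlapped between the sexes (exact two-sided permutation p = 0.3, where 3 libraries against 3 cannot go below 0.1). In TMM-scaled CPM the family mean was lower in male gonads, at 105.4 ± 15.7 against 142.6 ± 37.3 (SD, n = 3), again with overlap. The direction of the family's level thus depended on the scaling.

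The most abundant member of the hermaphrodite gonad, mir-239b, had 185, 83 and 278 raw counts in hermaphrodite replicates 1 to 3 and 30, 28 and 7 in male replicates 1 to 3. It ranked 57 to 69 among the miRNAs of each hermaphrodite library, of which 151 to 154 had a count, and 87 to 92 in the male libraries, where 134 to 149 had one. As TMM-scaled CPM the values were 100.2, 63.3 and 137 in hermaphrodite and 35.2, 39.2 and 23.3 in male gonads. All 3 male libraries lay below all 3 hermaphrodite libraries on that scale. Among all tested miRNAs 67.7% had no such overlap, so this was the common case in the table. As CPM of library totals the values were 70.6, 35.4 and 123 against 50.2, 63.6 and 28.5, and there the sexes overlapped.

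The test was edgeR's quasi-likelihood F-test, and every adjusted p below from it is Benjamini-Hochberg adjusted over the tested miRNAs. By this edgeR test mir-239b fell in male gonads, at -1.59 on the log2 scale (SE 0.57, adjusted p = 0.0125). Its means were 100.2 ± 37.0 scaled CPM in hermaphrodite and 32.6 ± 8.26 in male gonads (SD, n = 3), a 3.01-fold fitted difference. Without hermaphrodite replicate 2 the log2 fold change was -2.34, and with TMM without the mir-35 family -2.20. The call held in 16 of 18 alternatives. It passed narrowly under upper-quartile scaling (edgeR adjusted p = 0.0484), without hermaphrodite replicate 3 (0.0446) and without male replicate 1 (0.0443). The call was lost under library totals, where the log2 fold change was -0.65 (adjusted p = 0.307), and with the replicate number as a block (adjusted p = 0.061).

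In the opposite direction, mir-239a had 31, 13 and 25 raw counts in hermaphrodite replicates 1 to 3 and 44, 20 and 5 in male replicates 1 to 3. Both sexes held 69 counts of it in all, although the male libraries were shallower. As CPM of library totals these counts were 11.8, 5.55 and 11.0 in hermaphrodite and 73.7, 45.4 and 20.4 in male gonads, with no overlap between the sexes, as for 71% of tested miRNAs on that scale. In TMM-scaled CPM the values were 16.8, 9.91 and 12.3 against 51.6, 28.0 and 16.6. Male replicate 3 then fell inside the hermaphrodite range. That library had only 5 counts of mir-239a, for which the exact 95% Poisson interval is 1.62 to 11.7 counts.

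The same edgeR test called mir-239a higher in male gonads, at 1.35 on the log2 scale (SE 0.58, adjusted p = 0.0398). In scaled CPM, hermaphrodite gonads had a mean of 13.0 ± 3.49 and male gonads 32.1 ± 17.9 (SD, n = 3). Its direction was the same in all 18 alternatives, up to 2.34 under library totals, but the call was lost in 13 of them, and the adjusted p ranged from 0.00671 to 0.418. Among these, leaving out hermaphrodite replicate 1, 2 or 3 gave adjusted p-values of 0.133, 0.418 and 0.31, and leaving out male replicate 1 or 2 gave 0.386 and 0.140. Without male replicate 3 the call held, at 1.24 with an adjusted p of 0.0155. The log2 fold change was 0.65 without male replicate 1 and 0.68 without hermaphrodite replicate 2. The calls of both mir-239 genes are to be read against a table in which 55.6% of tested miRNAs were called, 30.6% as higher and 25% as lower in male gonads.

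No difference in mir-238 was detected. Its raw counts were 61, 38 and 53 in hermaphrodite replicates 1 to 3 and 30, 17 and 19 in male replicates 1 to 3. As scaled CPM the hermaphrodite libraries stood close together at 33.0, 29.0 and 26.2, while the male libraries stood at 35.2, 23.8 and 63.2. Male replicates 1 and 2 thus lay on either side of the hermaphrodite libraries, and male replicate 3 above all of them. The change was 0.42 on the log2 scale (SE 0.58, edgeR adjusted p = 0.587). Without male replicate 3 it was -0.32 and without hermaphrodite replicate 2 it was -0.10, so its direction rested on single libraries. As CPM of library totals the values were 23.3, 16.2 and 23.4 in hermaphrodite and 50.2, 38.6 and 77.4 in male gonads. These did not overlap, as for 71% of tested miRNAs on that scale. Under that scaling alone mir-238 was called higher, at 1.37 (edgeR adjusted p = 0.0147). Under library totals 71.8% of all tested miRNAs were called, 55.6% as higher in male gonads, and the median log2 fold change of all tested miRNAs was 1.18.

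Summing the mir-239 copies placed opposite changes in 1 value. The sum had 216, 96 and 303 raw counts in hermaphrodite replicates 1 to 3 and 74, 48 and 12 in male replicates 1 to 3. In scaled CPM the male libraries, at 86.9, 67.1 and 39.9, overlapped the hermaphrodite libraries, at 117, 73.2 and 149.5. The log2 fold change of the sum was -0.82 (SE 0.50, edgeR adjusted p = 0.168 over the 123 rows then tested). It did not pass the threshold, and under library totals its direction turned, to 0.16. Leaving out hermaphrodite replicate 2 gave -1.50 with an adjusted p of 0.0388.

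**Figure D1:**
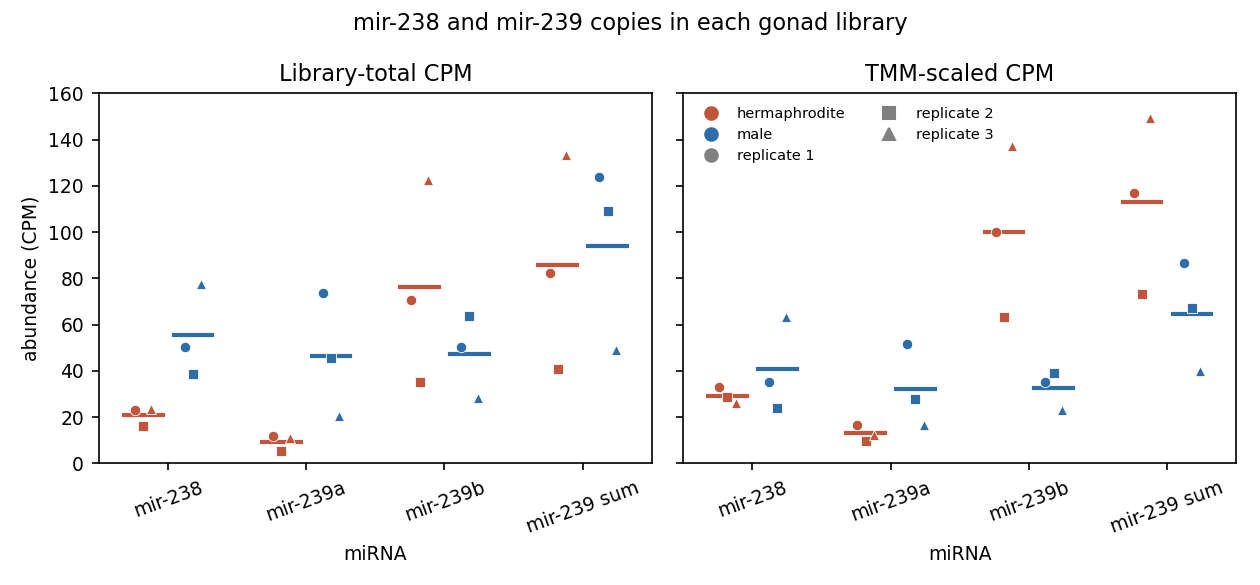
Abundance of mir-238, mir-239a, mir-239b and the mir-239 sum in each library, in CPM of library totals (left) and TMM-scaled CPM (right). Points are libraries, with the replicate number as the marker shape, and bars are means of 3. On the right every male value of mir-239b lies below every hermaphrodite value, while mir-238 and mir-239a overlap between the sexes. On the left mir-238 and mir-239a do not overlap, while mir-239b does. Of all tested miRNAs, 67.7% had no overlap on the right scale and 71% on the left.

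The authors' deposited table of normalized counts is the same counts divided by 1 factor per library. On that scale mir-239b was at 106, 61.8 and 175 in hermaphrodite replicates 1 to 3 and at 26.7, 34.8 and 22.1 in male replicates 1 to 3, without overlap. For mir-239a the deposited values were 17.8, 9.67 and 15.8 against 39.2, 24.8 and 15.8, with male replicate 3 again within the hermaphrodite range. For mir-238 they were 35.1, 28.3 and 33.4 against 26.7, 21.1 and 59.9. The mir-239 sum, at 124, 71.4 and 191 against 65.9, 59.6 and 37.8, did not overlap on the deposited scale either, although it did in TMM-scaled CPM. On the deposited scale 68.5% of tested miRNAs had no overlap between the sexes.

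Changes in scaling shifted all miRNAs together. The median log2 fold change over all tested miRNAs was 0.15 with TMM. Library totals raised it by 1.03 and upper-quartile scaling by 0.22, while relative log expression (RLE) lowered it to -0.20 and TMM without the mir-35 family to -0.35. Relative to the median of each scaling, mir-239a stood 1.13 to 1.20 above it on the log2 scale and mir-238 0.19 to 0.30 above it. In the same terms mir-239b stood at -1.74 to -1.85 and the mir-239 sum at -0.96 to -1.04.

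**Figure D2:**
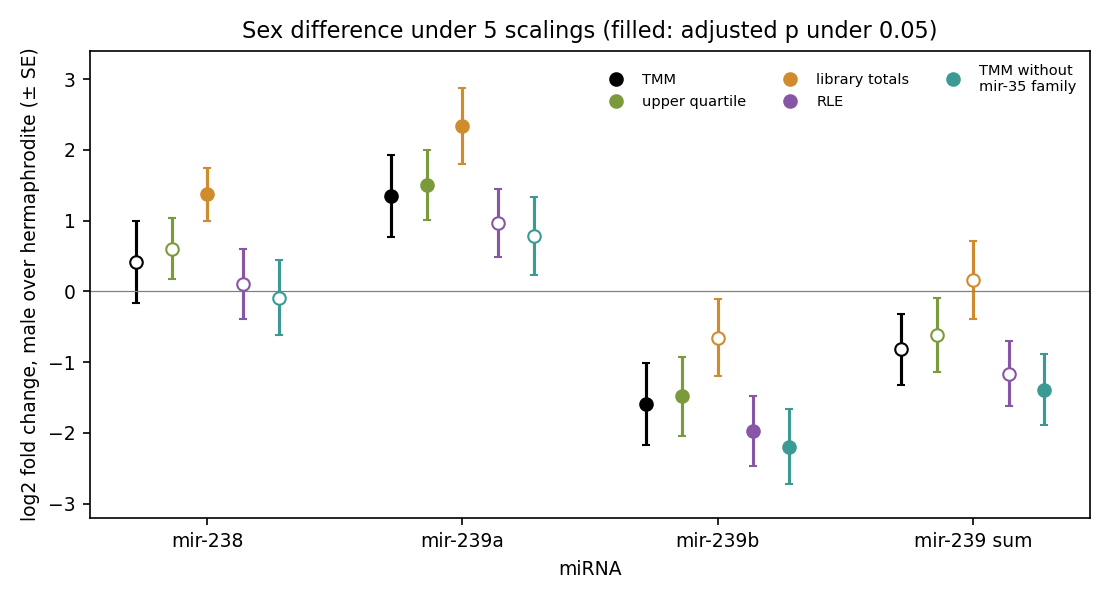
Log2 fold change, male over hermaphrodite, with its standard error for each member and the mir-239 sum under 5 scalings between libraries; filled points have an adjusted p under 0.05. The values of mir-239a were above 0 and those of mir-239b below 0 under all 5 scalings, while mir-238 and the sum crossed 0.

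Ratios taken within a library do not depend on the scaling between libraries. Of all mir-239 counts, mir-239a held 14.4% in hermaphrodite replicate 1 (31 of 216, 95% Wilson interval 10.3% to 19.7%), 13.5% in replicate 2 (13 of 96, 8.09% to 21.8%) and 8.25% in replicate 3 (25 of 303, 5.65% to 11.9%). In male gonads it held 59.5% in replicate 1 (44 of 74, 48.1% to 69.9%), 41.7% in replicate 2 (20 of 48, 28.8% to 55.7%) and 41.7% in replicate 3 (5 of 12, 19.3% to 68.0%). The lowest male share was above the highest hermaphrodite share. The intervals of male replicates 1 and 2 lay above all 3 hermaphrodite intervals, while that of male replicate 3 overlapped those of hermaphrodite replicates 1 and 2. These intervals cover counting error only, since PCR copies are not told apart from separate molecules. The mean share was 12.0% ± 3.31 in hermaphrodite and 47.6% ± 10.3 in male gonads (SD, n = 3).

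As a log2 ratio of counts plus 0.5, mir-239a against mir-239b was -2.88 ± 0.50 in hermaphrodite and -0.13 ± 0.58 in male gonads (SD, n = 3), a difference of 2.75. The exact two-sided permutation p was 0.1, the smallest that 3 libraries against 3 can give, and 0.2 adjusted over the 2 ratios tested. The difference was 2.42 to 2.93 with any 1 library left out. Over all 7626 pairs of tested miRNAs the within-library ratio did not overlap between the sexes for 70.3%, so the lack of overlap alone was common.

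The sum of the mir-239 copies against mir-238 did not separate the sexes. The sum was 3.54, 2.53 and 5.72 times the mir-238 count in hermaphrodite replicates 1 to 3 and 2.47, 2.82 and 0.632 times it in male replicates 1 to 3. Male replicate 3 was the only library in which mir-238 exceeded the sum. The difference in mean log2 ratio was -1.18 (exact two-sided permutation p = 0.2, and 0.2 adjusted over the 2 ratios), and without male replicate 3 it was -0.50.

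Each copy was also set against mir-238, as values with no test. In hermaphrodite replicates 1 to 3, mir-239b was 3.03, 2.18 and 5.25 times mir-238, and in male replicates 1 to 3 it was 1.0, 1.65 and 0.368 times mir-238. These did not overlap between the sexes, as for 70.3% of all pairs of tested miRNAs. For mir-239a the ratios were 0.508, 0.342 and 0.472 in hermaphrodite and 1.47, 1.18 and 0.263 in male gonads. Male replicates 1 and 2 were above the hermaphrodite range and male replicate 3 was below it.

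**Figure D3:**
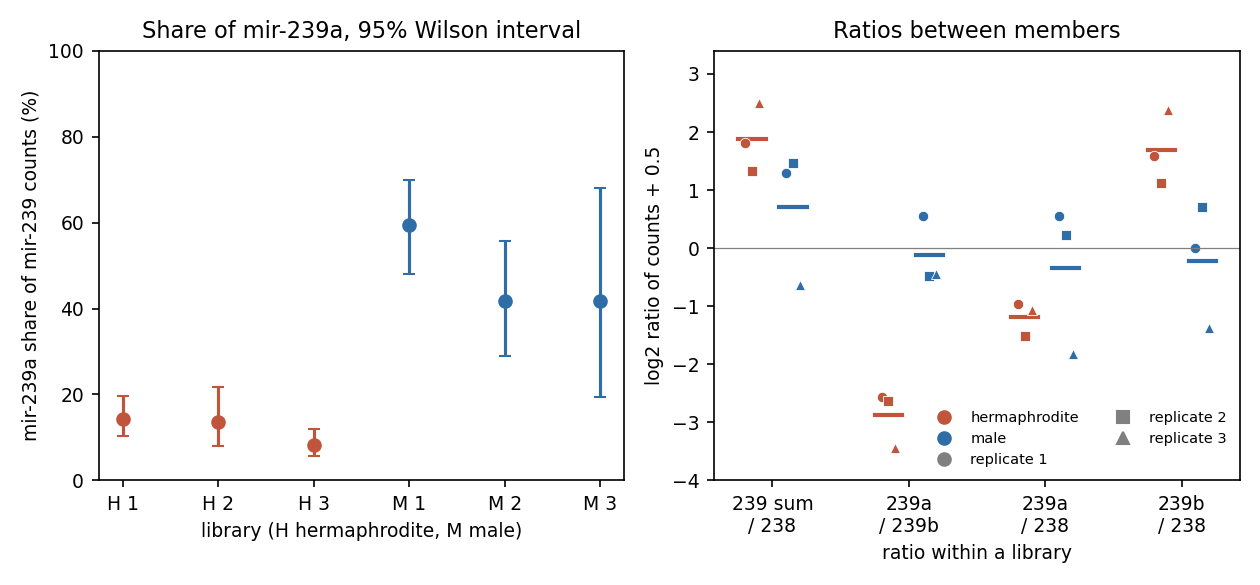
Left, share of mir-239 counts held by mir-239a in each library with its 95% Wilson interval; right, log2 ratios between members within each library, with bars for means of 3. The mir-239a share was 8.25% to 14.4% in hermaphrodite and 41.7% to 59.5% in male libraries, and the ratio of the mir-239 sum to mir-238 overlapped between the sexes.

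Profiles over the 6 libraries were compared by the root mean square difference of row-centred log2 scaled CPM. The tested miRNAs nearest to mir-238 were mir-249 at 0.287, mir-245 at 0.326 and mir-4813 at 0.343. Nearest to mir-239a were mir-790 at 0.332, mir-45 at 0.382 and mir-85 at 0.412, and nearest to mir-239b were mir-59 at 0.357, mir-55 at 0.551 and mir-66 at 0.556. No member was among the nearest of another. The distance between mir-239a and mir-239b was 1.38, against a median of 1.13 from mir-239a to the 123 other tested miRNAs. From mir-238 the distances were 0.841 to mir-239a and 1.18 to mir-239b, against a median of 1.06.

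Of 6 other miRNAs studied in adult lifespan and stress, 5 were tested, 3 rose and 1 fell in male gonads, where 30.6% of all tested miRNAs rose and 25% fell. Their median log2 fold change was 1.02, against 0.15 over all tested miRNAs. The summed level of the 6 went the other way, at 98875 to 119701 scaled CPM in hermaphrodite and 20979 to 26964 in male libraries. Most of the hermaphrodite sum was mir-246. One member, mir-228, is also in the list of somatic markers below. By the edgeR test lin-4, a regulator of larval timing that also acts in ageing, rose by 1.30 (SE 0.42, adjusted p = 0.00465). By the same test mir-34, a conserved stress-response miRNA, rose by 1.02 (SE 0.40, adjusted p = 0.0227) and mir-228 rose by 1.22 (SE 0.39, adjusted p = 0.00458). The only one that fell was mir-246, at -5.05 (SE 0.41, adjusted p = 5.08e-27), and mir-71, which promotes long life in this species, was at 0.65 (SE 0.40, adjusted p = 0.156). The directions of these 5 were the same under all 5 scalings. The calls of lin-4, mir-34 and mir-228 were lost with TMM without the mir-35 family (edgeR adjusted p = 0.0694, 0.142 and 0.0894), that of mir-34 also with RLE (0.0593), and mir-71 was called higher under upper-quartile scaling and library totals (0.0094 and 0.000449). The neighbour of mir-238, mir-80, had 0 to 2 counts in every library and was not tested. How reads that match more than 1 miRNA were counted is not stated, so these counts alone do not show that mir-80 was absent.

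A list of 6 markers of somatic tissue was read beside the family. Of the 4 tested, 3 were called by the edgeR test, in a table with 55.6% called: mir-228 (glia and hypodermis) and lsy-6 (neurons) were higher and mir-1 (muscle) was lower in male gonads. The intestinal mir-60 did not pass, at 0.93 (edgeR adjusted p = 0.0582), but was called higher under library totals, at 1.98 (edgeR adjusted p = 0.0344). The directions of these 4 held under all 5 scalings, but each of the 3 calls was lost under at least 1 of them. The 6 summed to between 6061 and 8273 scaled CPM in hermaphrodite and between 10615 and 16621 in male libraries, most of it mir-228. All neuronal markers had few counts. In hermaphrodite and male libraries mir-124 had 1 to 6 and 0 to 2, mir-791 had 6 to 11 and 1 to 6, and lsy-6 had 7 to 12 and 2 to 20. Their mean scaled CPM was 1.78 and 1.32 for mir-124, 4.75 and 7.25 for mir-791 and 5.43 and 14.7 for lsy-6. Of these, mir-124 and mir-791 did not pass the filter. The part of somatic tissue in the values of mir-238, mir-239a and mir-239b was not tested.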

How the data were processed

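Small RNA libraries from gonads (3 of each sex, grouped and numbered by title) were made with the TruSeq Small RNA kit, per the labels' protocols. The authors deposited raw read counts per miRNA for each sample, and a table of normalized values, used here as a signal. Bowtie2, HTSeq and DESeq2 are named in the submitters' processing notes, without role or version; the build ce10 and miRBase 22 appear only in file and column names. The normalized signal equals the deposited counts divided by 1 factor per library. No row lacked a miRNA name.

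Counts were tested with edgeR 4.0.16 in R 4.3.3: filterByExpr (minimum count 10, keeping 124 of 253 miRNAs), TMM scaling (factors 0.560 to 1.62), estimateDisp with robust settings, glmQLFit with robust=TRUE and glmQLFTest, two-sided, with Benjamini-Hochberg adjustment at 0.05. Standard errors were obtained by dividing each log2 fold change by √F. For the mir-239 sum, both copies were added and the fit repeated. For ratios and shares, exact permutation tests were run in Python 3.11.15 (scipy 1.17.1). The fit was tested on simulated counts with known changes. Libraries of the same sex were all distinct beyond sampling noise, with a chi-square of at least 2683 (122 degrees of freedom), for male replicates 1 and 2. Male replicate 3 stood apart from both, at 91064 against replicate 1 and 79989 against replicate 2 (117 degrees of freedom). Hermaphrodite pairs lay between 18982 and 20061.

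Alternatives were other scalings (RLE, upper quartile, library totals, TMM computed with the mir-35 family left out), DESeq2 1.42.0, limma-voom and limma-trend (limma 3.58.1), robust=FALSE, no filter, a stricter filter, a block for the replicate number, omission of each library and a threshold of 0.01. Named are the members, the 3 miRNAs with the nearest profile to each, and lists of lifespan and somatic miRNAs. The members and lists were chosen with earlier results of these data known. Names and neighbours come from the WBcel235 annotation. Its build differs in name from that in the file names, so no coordinate is given. Mature sequences were not used here, so other miRNAs with the same seed were not sought.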

Additional observations from a re-analysis of the deposited data

How the results depend on the processing

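The number of called miRNAs (69) stayed within 1.5 times in all 19 alternatives, from 49 to 89, but the split by direction moved with the scaling, from 38 higher and 31 lower to 69 and 20 under library totals and 28 and 36 with TMM without the mir-35 family. The call of mir-239a was lost at 0.97 with RLE, 0.78 with TMM without the mir-35 family, 0.98 with DESeq2, 1.26 with limma-voom, 1.33 without the filter, and 0.79 and 0.83 with limma-trend at pseudocounts of 1 and 0.1 (log2). For mir-239b the call was lost at -0.65 under library totals. The direction of mir-238 reversed at -0.087 with TMM without the mir-35 family, and it was called at 1.37 under library totals. The mir-239 sum reversed at 0.16 under library totals and was called at -1.39 with TMM without the mir-35 family, -1.16 with DESeq2 and -1.16 with limma-trend at a pseudocount of 1. The cause was not tested. With 1 library left out, log2 fold changes ranged from -0.32 to 0.45 for mir-238 (-0.32 without male replicate 3, -0.10 without hermaphrodite replicate 2), 0.65 to 1.28 for mir-239a, -2.34 to -1.65 for mir-239b and -1.50 to -0.85 for the mir-239 sum. For the sum against mir-238 the range was -1.56 to -0.50.

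The replicate numbers did not pair the libraries: deviations of same-numbered libraries correlated at -0.12, -0.05 and -0.27, and 0 of 3 male libraries correlated best with their own number. With the replicate block 58 miRNAs were called, and the values were 1.24 for mir-239a (adjusted p = 0.106), -1.53 for mir-239b (adjusted p = 0.061), 0.36 for mir-238 and -0.79 for the mir-239 sum, none of them called. The tested ratios kept their direction in every alternative tried. The family's share of counts kept its direction without the mir-35 family in the totals and with any 1 library left out. No alternative for the share changed the scaling between libraries. In TMM-scaled CPM the family mean was lower in male gonads, at 105.4 against 142.6. The counts of 5 and 7 for the mir-239 copies in male replicate 3 limit what that library can show.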

Other observations

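Among the tested miRNAs there were 9 pairs of lettered copies with the same number. The within-library ratio did not overlap between the sexes for 5 of the 9 pairs (55.6%), against 70.3% of all pairs of tested miRNAs, and mir-239a to mir-239b had the fourth largest difference, after 2 pairs in the mir-58 family and the mir-2208 pair. The median size over the 9 pairs was 1.90 on the log2 scale. The pairs were not independent, since the mir-58 copies were paired with each other, as were the mir-2209 copies. Both mir-58 pairs with larger differences held mir-58c. The 3 pairs of mir-2209 copies differed by 0.16 or less. These pairs were chosen after the values of the mir-239 copies were seen. The family's share of counts was 1.40-fold in male over hermaphrodite gonads (exact two-sided permutation p = 0.3). With the mir-35 family left out of the totals it was 1.15-fold (p = 0.7 by the same permutation test). On the deposited scale the family mean was instead lower in male gonads, at 90.3 against 161. The sexes did not overlap there, as for 68.5% of tested miRNAs on that scale.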
